A study of Mus musculus with 3 samples.

Results

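Intergenic long non-coding RNAs (lincRNAs) in cytosolic RNA of mouse macrophages are described here. Members were the genes that GENCODE M21 gives the biotype lincRNA, without Gas5 and the Snhg genes, that had a mean expected count of 10 or more over the libraries. This gave 322 members, out of 13625 genes of any biotype that reached that mean and out of 5849 lincRNA genes annotated under the same name rule, of which 1153 had any count. Members were sorted by how their level varied between the libraries. A member was stable when its highest library was less than 2 times its lowest, and high only in replicate 3 when that library was at least 2 times each of the other 2 and these lay within 2 times of each other. Members were thus chosen by, and sorted on, the same counts that are reported, so levels and classes are descriptions and carry no test.

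RNA was sequenced after ribosomal RNA depletion from the cytosolic fraction of bone marrow-derived macrophages, phagocytes grown from marrow, of strain C57BL/6J. All cells had received lipid A, the Toll-like receptor 4 ligand within bacterial lipopolysaccharide, at 100 ng/ml for 12 h, then 12 h without it, and were taken at 0 min of a further exposure. The series holds 1 group of 3 libraries, called biological replicates 1, 2 and 3 and all placed under the same donor identifier, with sex and age not collected. There is no control group, so nothing here is an effect of lipid A. Whether the libraries came from separate animals or cultures is not stated, so their spread may be technical.

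A lincRNA is a transcript made from its own locus, usually by RNA polymerase II, with no long conserved reading frame. Some lincRNAs act where they are made and stay in the nucleus, such as Malat1 of nuclear speckles, Neat1, the scaffold of paraspeckles, and Xist, which coats the inactive X chromosome. Others, such as Norad (2900097C17Rik in the annotation), which binds Pumilio proteins, and Oip5os1 or Cyrano (1700020I14Rik), which drives decay of the microRNA miR-7, are known from the cytoplasm.

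The sequences of 5 members carry the features by which these roles are known, and 3 of these members turned out to be high only in replicate 3 and the other 2 stable. They are shown 5′ to 3′ on the GENCODE M21 transcripts of GRCm38, as DNA letters. Capitals mark the bases of Oip5os1 that are complementary to miR-7a, the TGTANATA letters bound by Pumilio proteins in Norad, the U-rich runs and the A-rich tract that close the 3′ ends of Malat1 and Neat1 in a triple helix, and the core of the Xist A repeat, which is needed for silencing.
Oip5os1 (chr2:119602137-119602161, plus strand): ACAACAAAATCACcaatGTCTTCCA
Norad (chr2:156391344-156391463, minus strand): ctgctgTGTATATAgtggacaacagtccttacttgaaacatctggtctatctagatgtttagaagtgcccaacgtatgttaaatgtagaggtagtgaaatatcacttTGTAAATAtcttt
Malat1 (chr19:5795977-5796072, minus strand): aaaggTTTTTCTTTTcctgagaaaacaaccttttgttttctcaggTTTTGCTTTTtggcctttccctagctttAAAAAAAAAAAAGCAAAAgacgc
Neat1 (chr19:5824708-5824802, minus strand): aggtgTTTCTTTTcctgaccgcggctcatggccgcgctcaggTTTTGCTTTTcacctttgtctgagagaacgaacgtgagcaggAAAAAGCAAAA
Xist (chrX:103482790-103482909, minus strand): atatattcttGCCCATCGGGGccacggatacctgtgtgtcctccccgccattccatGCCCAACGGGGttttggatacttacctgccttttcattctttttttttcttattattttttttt

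The Oip5os1 site pairs with this microRNA, whose seed (bases 2 to 8) is in capitals, from RefSeq on GRCm38.p6.
mmu-miR-7a-5p (chr7:78888295-78888317, plus strand): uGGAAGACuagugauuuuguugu

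Of the 23 bases of miR-7a, 13 at one end of the Oip5os1 site and 8 at the other had their complement, at bases 2935 to 2959 of a transcript of 8300 bases. Norad held TGTANATA 11 times in its 4915 bases, of which the stretch above shows 2. No other member held it more than 6 times, 242 of the 322 did not hold it at all, and Norad ranked 1 of the 266 members with a transcript of 1000 bases or more by its density. A pair of U-rich runs followed by an A-rich tract, in the order and near the spacing shown, occurred in 2 of the 5849 lincRNA genes, Malat1 and Neat1, from which the pattern was written. The long Neat1 form of 20771 bases ends with that tract, while the annotated Malat1 transcript of 6983 bases runs on for another 292. Xist held the core of the A repeat, with any base at the position where the copies above differ, 6 times, between bases 356 and 733 of 17946, and no other member held it in its leading transcript.

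Replicate 3 stood apart before any single lincRNA was considered. Gene rows held 28981178, 53119941 and 46783133 expected counts in replicates 1, 2 and 3, so replicate 1 was the shallowest. Mitochondrially encoded genes took 0.225%, 0.220% and 0.514% of counts in replicates 1, 2 and 3, small nuclear RNA genes 0.00365%, 0.00322% and 0.0144%, and retained-intron transcripts of protein-coding genes 1.20%, 1.15% and 2.27%. Not every nuclear RNA set replicate 3 apart in this way. Rn7sk, the most abundant of the listed nuclear RNA species, was at 51085, 27745 and 61251 TPM, where replicate 3 lay near replicate 1. Macrophage markers, 7 of 7 detected, summed to 5235, 4730 and 5635 TPM (reads per length, scaled to the same total in each library), and the neutrophil, B cell, fibroblast and erythroid marker sets each summed to under 10 TPM in every library. The T cell set summed to 17.8, 17.7 and 18.9 TPM, nearly all of it Cd4, with Cd3e and Cd3g at 0.04 TPM or less. What part these differences play in the lincRNA values was not tested, and in bulk RNA fewer cells of a kind and less RNA per cell cannot be told apart.

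Of the 322 members, 155 (48.1%) were stable, 70 (21.7%) were high only in replicate 3, and 97 followed other patterns. Over all 13625 genes 82.5% were stable and 5.78% were high only in replicate 3, and over 11539 protein-coding genes 90.9% and 1.56% were. Most members had lower counts than most protein-coding genes, so shares over all genes, here and beside the gene lists below, are not matched for count. At mean counts of 10 to 30, 40.1% of members and 44.4% of protein-coding genes were stable, and 22.4% and 12.6% high only in replicate 3. At 30 to 100 counts 49% and 71.7% were stable, and 22% and 4.08% high only in replicate 3. At 100 to 1000 counts 63.8% and 93.8% were stable, and 17.2% and 0.771% high only in replicate 3. At 1000 or more counts, with only 17 members, the shares were 58.8% and 98.4%, and 29.4% and 0.217%. These shares used the contrast that sorted the members, and nothing is read from them as a test. With no condition on replicates 1 and 2, replicate 3 was at least 2 times each other library for 104 members (32.3%), against 9.04% of all genes and 2.26% of protein-coding genes. Without replicate 3, 252 members (78.3%) had replicates 1 and 2 within 2 times of each other, against 91.9% of all genes and 95.2% of protein-coding genes.

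**Figure D1:**
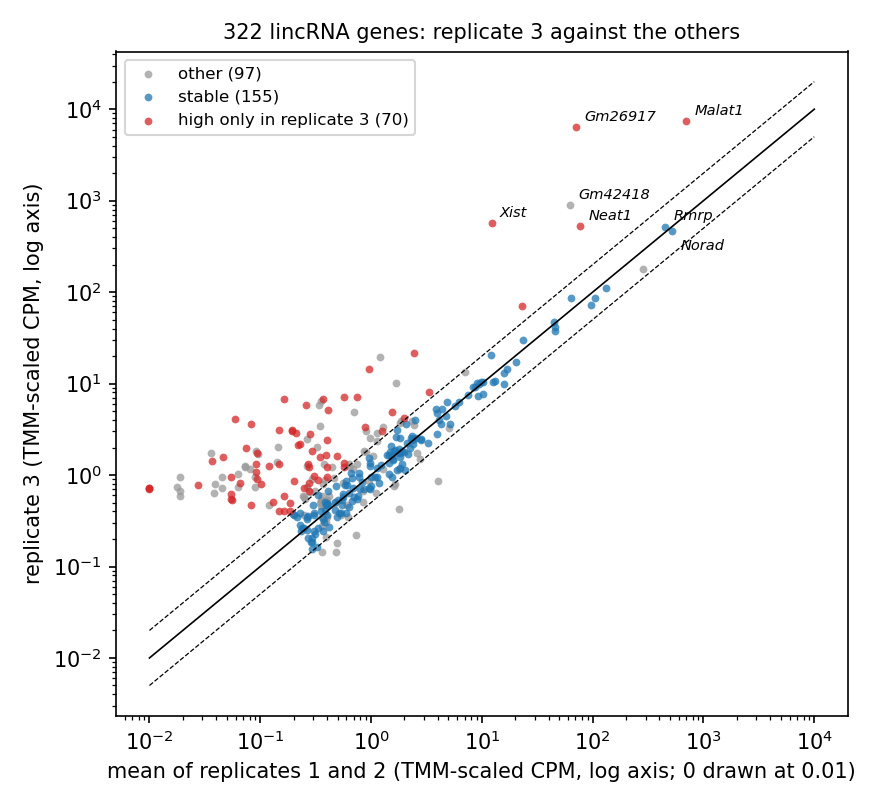
Each point is a lincRNA member, with the mean of replicates 1 and 2 on the x axis and replicate 3 on the y axis, both in CPM (counts scaled by library size and TMM factors) on log axes. The solid line marks equality and the dashed lines a ratio of 2. Stable members (155) follow the solid line, and the 70 members high only in replicate 3 lie above it, with Malat1, Gm26917, Xist and Neat1 farthest up.

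Counts per member were low, which limits how finely they can be sorted. The median mean count was 35.5, with 75 members at 100 or more and 17 at 1000 or more. Of the 70 members high only in replicate 3, 36 had a mean count under 10 in replicates 1 and 2 and entered only through replicate 3, against 6 of the 155 stable members and 26 of the 97 others. Members that entered in this way had to have a higher count in replicate 3 than the mean of replicates 1 and 2. This way of entry therefore favours the class high only in replicate 3. With the mean of 10 required over replicates 1 and 2 alone, an alternative chosen after seeing the data, 254 members remained, 149 stable and 34 high only in replicate 3.

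Values near the limits show how close the classes lie. Just inside the count limit were Gm28874 and Gm26563, with mean counts of 10 and 10.1, and just outside were Gm26840 and Gm48799, with 9.94 and 9.92. Gm38947 was stable with its highest library 1.98 times its lowest, and Gm14461 was not with 2.01 times. In replicate 3 6030443J06Rik stood at 2.01 times the higher of the other libraries and was counted, while Gm44751 at 1.95 times was not.

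Spread between the libraries was wider for lincRNAs than for protein-coding genes of like count in each bin. The median coefficient of variation of CPM over the 3 libraries was 0.373 over all members. It was 0.453 for the 147 members with mean counts of 10 to 30, against 0.392 for 753 protein-coding genes, and 0.367 for 100 members with 30 to 100, against 0.257. For the 58 members with 100 to 1000 counts it was 0.217 against 0.126, and for the 17 with 1000 or more it was 0.178 against 0.103. Both kinds of gene varied less at higher counts, and the upper quartile for lincRNAs of 1000 or more counts reached 1.14, as 5 of these 17 were high only in replicate 3. With replicates 1 and 2 alone the median over all members was 0.253, against 0.0933 for protein-coding genes. These 2 medians pool all counts and are not matched for count, unlike those of the bins.

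**Figure D2:**
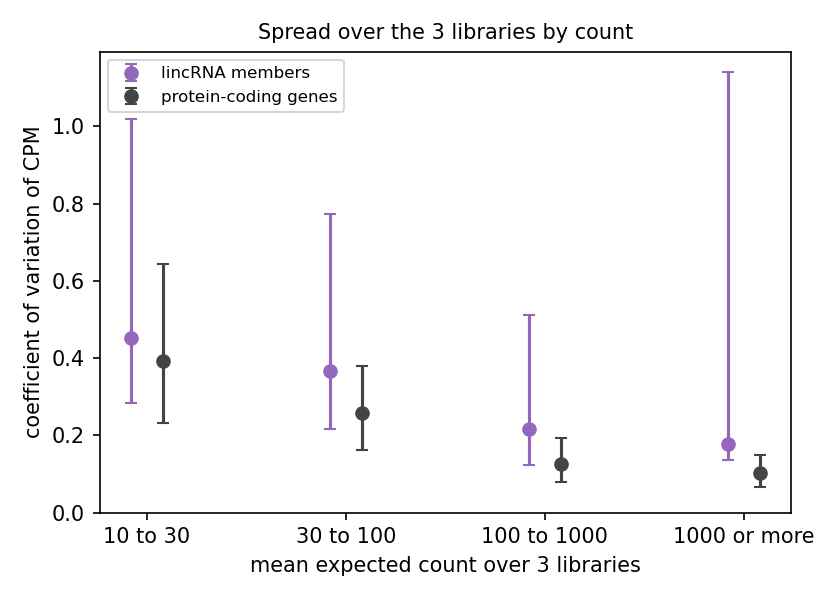
Points are median coefficients of variation of TMM-scaled CPM over the 3 libraries (y axis) in 4 bins of mean expected count (x axis), with bars from the lower to the upper quartile over genes. In each bin the lincRNA median lies above the protein-coding one, at 0.453 against 0.392 in the lowest and 0.178 against 0.103 in the highest.

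Levels per length differed widely between members. The median member had a mean of 0.37 TPM, 62 members reached 1 TPM in every library, and 14 reached 10 TPM in every library. Of the 62, 51 were stable, 5 were high only in replicate 3 and 6 followed other patterns. Of the expected counts in each library, members together held 0.357%, 0.271% and 1.90%. Without Gm26917, Gm42418 and the Rmrp entry, which overlap or adjoin genes of structural RNAs, they took 0.289%, 0.225% and 1.09%. Without Malat1 as well they took 0.207%, 0.171% and 0.315%, so the excess of replicate 3 was held mostly by a few genes.

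Among lincRNAs known from the cytoplasm, Norad was the most abundant and nearly level. Norad (chr2:156388065-156392979, minus strand), a single-exon RNA that holds Pumilio proteins and is known for keeping the genome stable, was at 67.14, 58.55 and 68.79 TPM in replicates 1, 2 and 3, a mean of 64.8 ± 5.50 TPM (SD, n = 3). No library stood apart. Oip5os1 (chr2:119594297-119607502, plus strand) was at 14.91, 11.82 and 13.23 TPM, a mean of 13.3 ± 1.55. Its 8300-base form, which holds the miR-7 site shown above, had 3455, 6265 and 5019 of its 3783, 6687 and 5386 expected counts. In every library the long form was the main source of its counts. Epb41l4aos, a short antisense-named lincRNA, was at 8.12, 6.15 and 8.26 TPM and was also stable. These 3 were the members on a list of 6 lncRNAs known from the cytoplasm or as hosts of small nucleolar RNAs. The list held 5 genes with a mean count of 10 or more, of which 4 were stable, Zfas1 included, close to the 82.5% of all genes, and Dancr, with 2, 5 and 23.01 counts, was high only in replicate 3. The median ratio of replicate 3 to the mean of replicates 1 and 2 was 0.899 over these 5, against 0.972 over all genes. H19, the sixth, had 0, 0 and 1 counts.

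Other stable members were abundant by TPM or by count. The lincRNA entry of Rmrp (chr4:43492783-43493063, minus strand), the RNA of the ribonuclease MRP that processes ribosomal RNA, had the highest level of all members, at 5679.88, 2738.24 and 5188.11 TPM. Replicate 2 was lowest, and replicate 1 was more than 2 times it, so Rmrp was stable by CPM but not by TPM. That entry covers the separate ribozyme entry of the same name on the same strand, so the split of its reads is uncertain. Gm10076 (chr14:105681828-105682211, plus strand) was at 426.6, 304.37 and 308.11 TPM, Gm36161 (chr13:120010390-120018931, plus strand) at 52.04, 40.97 and 46.63 TPM and 1810058I24Rik at 36.66, 33.24 and 36.9 TPM. In these 3 the libraries lay close together, but the quantification made directly from the reads gave Gm10076 only 9.74, 28.3 and 14.3 counts against 2864, 4830 and 3492, so its level is uncertain. Tmem250-ps was at 11.45, 10.96 and 14.47 TPM, AU020206 at 11.72, 8.21 and 10.6 TPM, and Gm26778, which overlaps Kctd12 on the opposite strand, at 10.34, 9.89 and 16.56 TPM. Gm37494 was stable by CPM, at 26.2, 21 and 30, but not by TPM, at 1.02, 1.18 and 4.82, where a 208-base form with 0, 1 and 5 counts took 3.3 TPM in replicate 3.

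The least variable members of 100 or more counts were nearly identical in the 3 libraries. Gm26637, which starts beside the interferon-induced kinase gene Eif2ak2 on the opposite strand, was at 6.24, 6.08 and 6.29 CPM, a coefficient of variation of 0.0183. A130077B15Rik was at 7.24, 7.71 and 7.49 CPM and AC158975.2 at 9.54, 9.26 and 9.82 CPM. Trp53cor1, the p53-induced lincRNA-p21 next to Cdkn1a, was at 4.25, 3.98 and 3.99 CPM. Tmem250-ps completed the 5 with 44.2, 45.3 and 47.5 CPM.

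**Figure D3:**
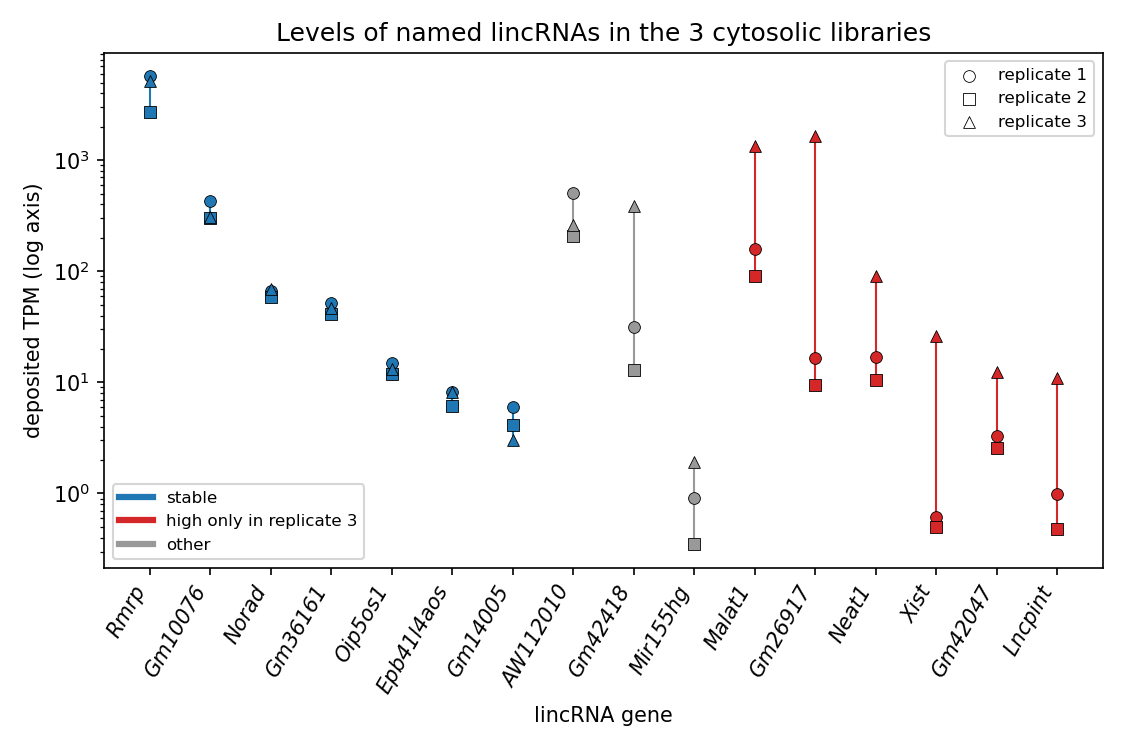
Deposited TPM (log axis) of 16 named lincRNAs (x axis), with a circle, square and triangle for replicates 1, 2 and 3 and a line over their range, coloured by class. The symbols of stable members such as Norad and Oip5os1 nearly coincide, while the triangle of Malat1, Gm26917, Neat1, Xist, Gm42047 and Lncpint lies far above both other symbols.

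Malat1, Neat1 and Xist, the best known nuclear lncRNAs, had counts in each cytosolic library and were highest in replicate 3. Malat1 (chr19:5795690-5802672, minus strand), a single-exon RNA of nuclear speckles in its main form, was at 157.74, 91.05 and 1343.21 TPM in replicates 1, 2 and 3. Replicate 3 stood at 10.6 times the mean of the other libraries on the CPM scale. Neat1 (chr19:5824708-5845478, minus strand), on which paraspeckles are built, was at 16.82, 10.44 and 91.44 TPM, or 6.79 times by CPM. Its 20771-base form had 639, 677 and 9885 counts and its 3004-base form 1951, 2440 and 15559. Both forms were highest in replicate 3, and the short one held more counts in every library. Since the short form repeats the start of the long one, the split between them is an estimate.

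Genes of the X-inactivation centre were high in replicate 3 as well. Xist (chrX:103460366-103483254, minus strand) was at 0.61, 0.5 and 25.91 TPM, from 452, 437 and 27922 counts, a ratio of 46.7 by CPM. Replicates 1 and 2 were low and replicate 3 far above them. The Y-linked genes Ddx3y, Kdm5d, Eif2s3y and Uty had 0 counts in every library, and so did Tsix, the RNA opposite to Xist. Jpx and Ftx, lincRNAs of the same centre that favour Xist expression, were at 0.61, 0.69 and 1.52 TPM and at 0.36, 0.33 and 0.98 TPM. Their ratios of 2.42 and 3.17 by CPM were smaller than that of Xist.

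Over the whole list of 16 nuclear lncRNAs, 7 were members, of which 6 were high only in replicate 3 and Pvt1, the neighbour of Myc, was stable at 0.43, 0.47 and 0.61 TPM. Lncpint, a p53-induced lncRNA, was the sixth, at 0.99, 0.48 and 11.01 TPM and 15.3 times by CPM. Among listed genes of other biotypes, Kcnq1ot1, which silences an imprinted cluster, had 45, 50 and 3138 counts. Firre had 67, 118 and 563 counts and Airn 22, 37 and 121, while Tug1 was stable at 23.58, 16.76 and 23.3 TPM. In all, 9 of the 11 listed genes with a mean count of 10 or more were high only in replicate 3, against 5.78% of all genes, and their median ratio was 4.96, against 0.972 over all genes and 1.33 over members. The other 5, Tsix, Meg3, Miat, Rian and Mirg, had 0 counts throughout, which allows up to 0.107, 0.0568 and 0.0614 CPM in replicates 1, 2 and 3 by counting error alone. The list was drawn up with earlier results of these libraries known and is not independent evidence of its direction.

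The highest ratio among members with 100 or more counts belonged to Gm26917 (chr17:39843013-39846341, plus strand), at 16.43, 9.44 and 1635.96 TPM and 90.6 times by CPM. Gm42418 (chr17:39846958-39848788, plus strand), the next model along the chromosome, was at 31.67, 12.96 and 384.27 TPM. It overlaps a ribosomal RNA gene on the opposite strand, and falls outside the class only because replicates 1 and 2 were more than 2 times apart. The leading Gm26917 transcript was 69.1% G and C, against a median of 46.3% over members. Malat1 and Gm26917 together took 25.3%, 21.9% and 75.7% of all member counts in replicates 1, 2 and 3. The whole class of 70 took 29.7%, 26.0% and 83.0%, and the stable class 54.8%, 64.0% and 10.2%.

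**Figure D4:**
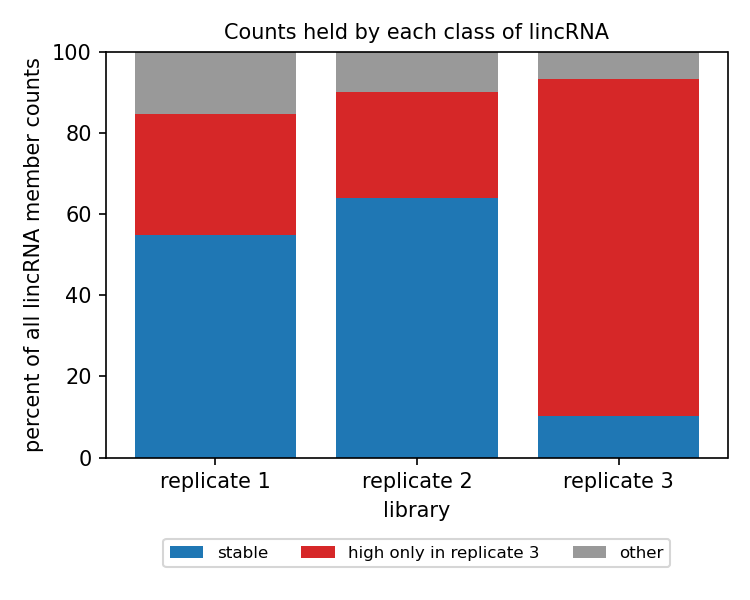
Bars show the percent of all lincRNA member counts (y axis) held by each class in each library (x axis). Members high only in replicate 3 held 29.7%, 26.0% and 83.0%, and stable members 54.8%, 64.0% and 10.2%.

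Other members of the class were lower in level. Gm42047 (chr8:121833247-121841178, plus strand) was at 3.3, 2.59 and 12.4 TPM, 5031425E22Rik at 1.5, 1.24 and 4.02 TPM, and Gm38025 at 0.25, 0.16 and 2.37 TPM. Their ratios by CPM were 3.10, 2.44 and 9.56. Gm26772 had 6, 6 and 331 counts, Gm26853 had 7, 14 and 286, and Gm20342 had 12, 16 and 331, and with Gm26917 and Xist they made up the 5 highest ratios at 100 or more counts. Over the class the median ratio was 9.32. Gm19325 and Gm48898 had no counts in replicates 1 and 2 and 35 and 34 in replicate 3, and no ratio was computed for them.

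Innate immune lncRNAs of macrophages did not share a pattern. AW112010 (chr19:11047612-11055808, minus strand), an interferon-inducible transcript of activated macrophages that is translated into a small protein, was among the most abundant members at 503.86, 209.28 and 262.6 TPM. Here replicate 1 was high and replicates 2 and 3 were level, at 395, 179 and 178 CPM. Gm14005 or Morrbid, which controls the lifespan of short-lived myeloid cells by repressing the neighbouring Bcl2l11, was stable at 6, 4.12 and 3.02 TPM, lowest in replicate 3. Mirt1 had 2, 2 and 27 counts. Ptgs2os2 or lincRNA-Cox2, a lincRNA induced early by Toll-like receptor ligands, had 6, 13 and 7 counts and missed the limit of 10. Of the 12 entries of this list, 7 had a mean count of 10 or more, with 3 stable, 1 high only in replicate 3 and 3 of other patterns, against 82.5% stable and 5.78% high only in replicate 3 over all genes. Their median ratio was 0.756, against 0.972 over all genes. The other 4 of these 7 are not lincRNAs by annotation. Dnmt3aos had 177, 257 and 207 counts and Gm15726 had 7.04, 13.13 and 22.2, and both were stable. F630028O10Rik had 126, 97 and 627 counts, highest in replicate 3, and Gm16685 had 16, 41 and 8, lowest there. Ptgs2os, with 1, 0 and 1 counts, and U90926, with 2, 1 and 0, were near the floor, and both Mirt2 entries had 0.

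Some lincRNAs are the precursors from which microRNAs are cut, and 10 members held 19 hairpins that lay whole within their span on their own strand. The counts below are of the host RNA, since the mature microRNAs were not measured. Mature sequences from RefSeq on GRCm38.p6 are shown for the hosts described, with the seed (bases 2 to 8) in capitals, because members of a family share it.
mmu-miR-155-5p (chr16:84714143-84714165, plus strand, in Mir155hg): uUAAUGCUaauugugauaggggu
mmu-miR-142a-3p (chr11:87756903-87756925, plus strand, in Mir142hg): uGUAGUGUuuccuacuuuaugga
mmu-let-7a-5p (chr13:48538239-48538260, minus strand, in 6720427I07Rik): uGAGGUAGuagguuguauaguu
mmu-let-7d-5p (chr13:48536078-48536099, minus strand, in 6720427I07Rik): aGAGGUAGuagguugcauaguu
mmu-let-7f-5p (chr13:48537889-48537910, minus strand, in 6720427I07Rik): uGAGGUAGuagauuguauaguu
mmu-miR-17-5p (chr14:115043684-115043706, plus strand, in Mir17hg): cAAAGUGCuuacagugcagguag
mmu-miR-20a-5p (chr14:115044183-115044205, plus strand, in Mir17hg): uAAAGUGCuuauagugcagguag

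The let-7 members of 6720427I07Rik share the seed GAGGUAG, and miR-17 and miR-20a of Mir17hg share AAAGUGC. Mir155hg, host of the inflammatory miR-155, had 45, 35 and 141 counts, or 1.61, 0.663 and 2.89 CPM, and replicate 2 was the low library. Mir142hg, host of the blood cell microRNA miR-142, had 5, 6 and 65 counts and was high only in replicate 3. The let-7 host had 69, 46 and 500 counts, with replicate 3 highest. Mir17hg, host of a cluster that promotes cell division, had 0, 2 and 29 counts. By class, 2 of the 10 hosts were stable, 4 were high only in replicate 3 and 4 followed other patterns, against 48.1% stable and 21.7% high only in replicate 3 over all members. In counts 9 of the 10, all but Gm37233, had fewer than 100 in both replicates 1 and 2. A list of 8 host genes of any biotype held 6 with a mean count of 10 or more, of which 1 was stable, 2 were high only in replicate 3 and 3 followed other patterns, against 82.5% stable and 5.78% high over all genes. Their median ratio was 4.72, against 0.972 over all genes. Beyond the members, Mir22hg was stable at 5.94, 6.52 and 10.3 CPM, Mir99ahg was high only in replicate 3 at 1.04, 1.23 and 6.88 CPM, and Dleu2 was at 10.7, 4.79 and 26.2 CPM. Mir9-3hg and Mir124a-1hg had 0 counts.

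The members that were neither stable nor high only in replicate 3 were mixed. In 34 of the 97 replicate 3 was at least 2 times each other library while replicates 1 and 2 lay more than 2 times apart, as in Gdap10 with 46, 41 and 953 counts. In 15 replicate 2 alone was low, in 7 replicate 1 alone was high, in 5 replicate 1 alone was low and in 4 replicate 3 alone was low. Another 32 were graded, with replicate 3 highest in 15, replicate 1 in 15 and replicate 2 in 2. Gm26527 was the most abundant of those low in replicate 3, at 4.38, 3.65 and 0.867 CPM. Over all members replicate 3 was the highest library for 190, replicate 1 for 86 and replicate 2 for 46, against 4588, 4226 and 4811 of the 13625 genes.

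Features of the loci and transcripts were not used to sort the members, and are given as medians and counts with no test. The leading transcript, the one with most counts, had a median length of 1780 bases in stable members and 2894 bases in members high only in replicate 3, against 1990 over all members and 967 over all 5849 lincRNA genes. With a mean count of 30 or more, a limit that here and below also counts replicate 3, it was 2012 and 3177 bases. Gene spans had medians of 6880 and 6644 bases, and each class had a median of 2 exons. Single-exon leading transcripts made up 18.7% of stable members and 24.3% of those high only in replicate 3, against 6.72% of all lincRNA genes. G and C content had medians of 46.9% and 45.8%.

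The letters AGCCC and CCTCCC, each linked in earlier work to nuclear retention, had like medians in both classes. AGCCC occurred at a median of 1.12 per kb in stable members and 1.16 per kb in members high only in replicate 3, against 1.08 over all members and 0.861 over all lincRNA genes. The AGCCC median was 0.98 per kb over members of other patterns. Over the 104 members where replicate 3 was at least 2 times each other library it was 1 per kb, below the stable class. CCTCCC occurred at 0.386 per kb in stable members and 0.447 per kb in those high only in replicate 3. At a mean count of 30 or more the medians in these classes were 1.04 and 1.26 per kb for AGCCC and 0.434 and 0.630 per kb for CCTCCC. There the AGCCC quartiles overlapped widely, at 0.371 to 1.96 and 0.716 to 2.02 per kb. At least 1 copy of AGCCC was present in 78.7% of stable members and 88.6% of those high only in replicate 3. The share was 82.5% over members of other patterns, 82% over all members and 61.2% over all lincRNA genes. Presence rises with length, and the leading transcripts had medians of 1780 bases in stable members and 2894 in those high only in replicate 3. Norad, which was stable, held AGCCC at 1.22 per kb, above Malat1 at 0.716 and Neat1 at 0.999, while Xist held 2.51 and Lncpint 3.68.

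The classes differed more in how often they overlapped protein-coding genes. Despite the intergenic name, 31 of 155 stable members (20.0%) and 29 of 70 members high only in replicate 3 (41.4%) overlapped the span of a protein-coding gene, against 8.46% of all lincRNA genes. The share was 36.1% over the 97 members of other patterns and 29.5% over all members. Among members with a mean count of 30 or more the shares were 18.8% and 45.9%. That limit also counts replicate 3, so a member can pass it through that library alone, and these shares are no separate support. Starts within 1000 bases of an opposite-strand protein-coding start were found in 33 stable members (21.3%) and 7 of those high only in replicate 3 (10%). The share was 11.3% over members of other patterns, 15.8% over all members and 5.4% over all lincRNA genes. At a mean count of 30 or more these shares were close, at 16.7% of stable members and 13.5% of those high only in replicate 3. Nearest protein-coding starts lay at like distances, with medians of 19424 and 18934 bases. Models named Gm26500 to Gm26999 made up 14 of the stable members (9.03%) and 24 of those high only in replicate 3 (34.3%), and 19 of these 24 overlapped a protein-coding span. They also made up 25 of the 97 members of other patterns (25.8%), of which 20 overlapped such a span. Their share was 19.6% over all members and 4.19% over all lincRNA genes. This name range was not among the features planned beforehand.

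Where a member high only in replicate 3 overlapped a protein-coding gene, most of these genes were not high in replicate 3 by their whole counts. With 0.5 counts added to each value, the 31 overlapped genes with a mean count of 10 or more had a median ratio of replicate 3 to the mean of replicates 1 and 2 of 1.02, from 0.634 to 2.38. That matched the 29 genes overlapped by stable members, at 1.02, and 26 of the 31 were stable themselves, 2 high only in replicate 3 and 3 of other patterns. Over all protein-coding genes the median was 0.950, with 90.9% stable and 1.56% high only in replicate 3. Gm26857 (chr4:3678117-3689548, minus strand) had 3.21, 1.66 and 21.5 CPM, a ratio of 8.79, while Lyn, the Src-family kinase gene it overlaps on the opposite strand, had 626, 387 and 429 CPM, a ratio of 0.848. Gm17275 (chr1:180802568-180809483, plus strand) stood at 12.2 and H3f3a, which encodes the histone variant H3.3, at 0.710. Gm26772 (chr14:25548390-25554369, minus strand) stood at 38.1 and Zmiz1, a transcriptional coregulator gene, at 0.970. Gm26522 stood at 9.09 and Ctsc, the cathepsin C gene, at 0.879. The exceptions that were high only in replicate 3 with their lincRNA were Fancc with Gm16907, at 2.38, and Clasrp with Gm26890, at 2.21, both on the same strand. Mycbp, on the opposite strand to Gm26606, was of another pattern but also highest in replicate 3. It had 3.31, 4.4 and 7.79 CPM, a ratio of 2.02. These ratios use the whole count of each gene. A rise as large as that of Gm26857, to 21.5 CPM, would hardly move a gene at the level of Lyn. Whether the unspliced RNA of the overlapped genes rose in replicate 3 was not tested. No source used here says whether counting used strand, so reads of a lincRNA and of the unspliced RNA of the gene opposite to it cannot be told apart.

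**Figure D5:**
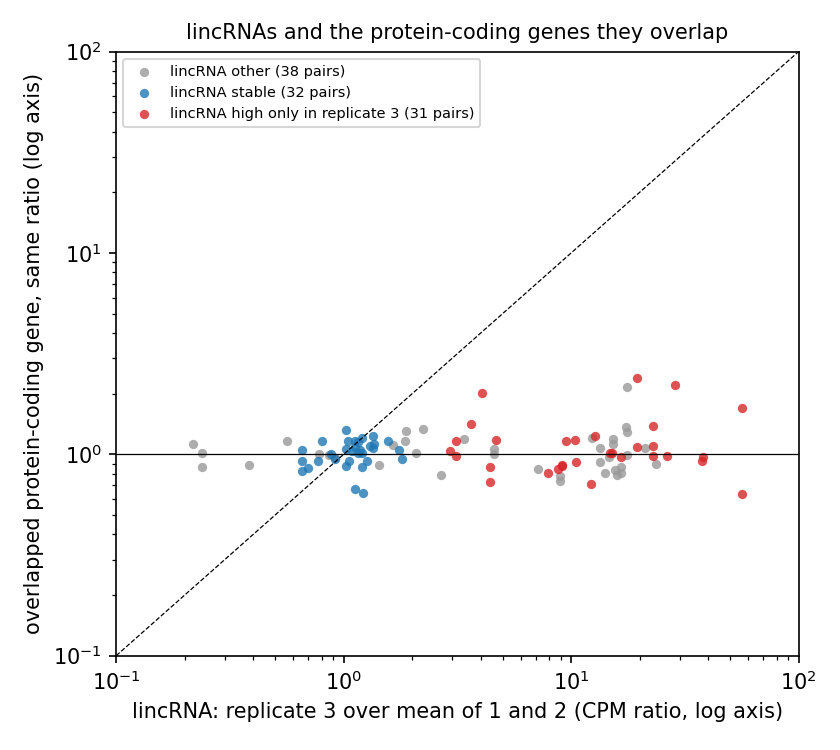
Each point pairs a lincRNA member (x axis) with a protein-coding gene whose span it overlaps (y axis), both as the ratio of replicate 3 to the mean of replicates 1 and 2 in CPM with 0.5 counts added, on log axes. The dashed line marks equality and the horizontal line a ratio of 1. The protein-coding genes stay between 0.634 and 2.38 while lincRNAs high only in replicate 3 run up to 56.3.

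A RefSeq promoter (250 bases before to 50 after a start, GRCm38.p6) was found under the same name or identifier for 88 of 155 stable members (56.8%) and 16 of 70 members high only in replicate 3 (22.9%). Those whose start lay within 1000 bases of the GENCODE start, 77 and 14, were searched on both strands. GGGCGG was present in 37.7% and 28.6% of them, against 35.7% of all 32851 promoters, CCAAT in 37.7% and 28.6% against 37.4%, and TATAAA in 9.09% and 28.6% against 13.6%. The interferon-stimulated response element was found in 1 and 0 of them, against 3.44% of all promoters, an NF-κB motif in 2 and 2 against 1.63%, and the PU.1 letters GAGGAAGT in 6 and 2 against 3.20%. With 14 promoters in the smaller class, a single promoter moves its share by several percent.

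The second deposited quantification, made directly from the same reads, gave the same class for 124 of the 155 stable members and 55 of the 70 high only in replicate 3. Of the remaining 15, 2 were stable there and 13 followed other patterns. Malat1 had 24363, 29928 and 377875 counts in those tables, and Gm26917 had 4221, 4821 and 524769. Replicate 3 was highest in both quantifications for each of these genes. Gm42418 became high only in replicate 3 there, and Gm26772, with 11.9, 6.47 and 422 counts, left the class because replicates 1 and 2 lay too far apart. Pvt1, at 28.2, 65.1 and 117 counts, was no longer stable.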

How the data were processed

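The authors' expected counts are estimated reads per gene, deposited with reads shared between genes split, and a posterior SD of each count, also deposited by the authors, measures that split. It exceeded 10% of the count in some library for 43 members. The deposited TPM values are normalised by the authors for length and library total over all rows, per the file headers. Per the deposited notes, assembly mm10 and annotation M21 were used. Aligner and quantifier: not given in the sources used here. Members and gene lists were chosen with earlier results of these data known.

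Rows naming no gene (0.418%, 0.248% and 0.165% of counts) were left out. TMM factors from edgeR 4.0.16, run in R 4.3.3, scaled the counts, and 0.5 counts were added to set the classes and for the overlapped gene pairs, but not for other ratios. Transcript sequences and coordinates are from GENCODE M21, which held every gene identifier. Named genes are the 10 highest members by TPM, the 10 highest by count in both main classes, the 5 highest ratios and 5 least variable at 100 or more counts, and all measured list genes; Gdap10, Gm26527, Gm19325, Gm48898, the microRNA hosts outside the list and the overlapped pairs were named after their values were seen. Alternatives were other fold and count limits, DESeq2 1.42.0 size factors on rounded counts, CPM without TMM, TPM with 0.01 added, read-derived counts, 2 counts added, members overlapping other exons left out, and each replicate left out. Python 3.11.15, numpy 2.4.6, pandas 2.3.3 and matplotlib 3.10.9 were used.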

Additional observations from a re-analysis of the deposited data

How the results depend on the processing

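The count of stable members (155) moved to 80 with a fold of 1.5, to 96 with a minimum mean count of 30 and to 47 with 100, both of which admit fewer genes, and ranged from 186 to 252 with 1 replicate left out, highest without replicate 3. The count of members high only in replicate 3 (70) moved to 37 and 15 at those count limits, to 39 with members overlapping exons of another gene left out, and to 34 with the mean of 10 over replicates 1 and 2, chosen after seeing the data. With a fold of 1.5 it was 54, and against a single other library it was 114 to 130, with 1 condition fewer. The number of members (322) became 1153 with any count, 175 at 30 and 75 at 100. The median coefficient of variation (0.373) became 0.376 with DESeq2 size factors, 0.382 without TMM, 0.441 with TPM, 0.307 and 0.209 at the higher count limits, and 0.253 to 0.367 with 1 replicate left out. The share of member counts in the class high only in replicate 3, averaged over libraries (46.2%), became 12.8% of TPM, where the short Rmrp entry takes most of the total, and ranged from 27.8% to 56.4% with 1 replicate left out, lowest without replicate 3. With a fold of 3, DESeq2 size factors, no TMM, TPM, read-derived counts or 2 counts added, stable members numbered 137 to 208 and those high only in replicate 3 numbered 65 to 78. No paired analysis was possible because the series holds 1 group. Depth limits the 147 members with mean counts of 10 to 30 most, since their class can turn on a few reads.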
